A study of Mus musculus with 2 samples.

Results

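Genes of taste receptor cells were examined at birth in sorted lingual epithelium of the mouse. The 35 genes were taken by symbol from a table of 21628 gene entries and comprise the sweet and umami receptors, the transduction chain of type II cells, the epithelial sodium channel, markers of type III and type I cells, potassium channels and the P2X receptors of the gustatory nerve. All 35 are in the table with a value in both libraries. The samples were cells from P0 pups carrying the Sox2GFP allele, in which green fluorescence reports *Sox2*, and both populations carry it. Cells of pooled tongues were sorted by fluorescence, after autofluorescent and dead cells had been gated out, into a bright population (SOX2-GFP-high, labelled GFP_High) and a dim one (SOX2-GFP-low, labelled GFP_Low), which were bins of a continuous range. About 100000 cells gave 1 library per population, so no value below has a replicate, no SD can be given and no p-value was computed. The methods name no epithelial surface marker in the gate.

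Taste buds hold modified epithelial cells of 3 types. Type II cells detect sweet, umami or bitter compounds with G protein-coupled receptors. These act through the G protein gustducin, phospholipase C, the IP3 receptor and the cation channels TRPM5 and TRPM4, and ATP leaves the cell through a CALHM channel. Type III cells detect acid through the proton channel OTOP1 and have synapses and serotonin. Type I cells are glia-like, and they clear transmitter and degrade ATP. The ATP acts on P2X receptors of the sensory nerve. The first taste receptor cells of the fungiform papillae differentiate around birth. The libraries were made to find genes that differ between bright and dim cells, and the levels of taste genes in each are described here.

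Values are FPKM, reads mapped to a gene after scaling for transcript length and library size, and levels of different genes can be set side by side on this scale because it is per length. Epithelial markers were present in both libraries, with *Epcam* at 166 FPKM in bright and 86.8 in dim cells and *Cdh1* at 382 and 309. The first value of each pair is that of the bright cells. The dim library also held high levels of connective tissue and glial markers, among them *Col3a1* (193 and 966), *Dcn* (143 and 504) and *Sox10* (0.51 and 42.7), so it was not purely epithelial. With *Col3a1* at 193 and *Dcn* at 143 FPKM, the bright library was not purely epithelial either. *Sox2* itself was at 112 and 59.0 FPKM. Total counts were not used here, and the labels give a sequencing depth of about 75M reads for each sample. The steps between low FPKM values pointed to about 27200000 reads behind the bright and 35600000 behind the dim values, fewer than the labels give, and 55.8% of 292 and 51.0% of 241 low values lay within 0.15 of a whole read, against 30% at a depth fixed beforehand. The depths were chosen to raise these shares. Read numbers given below are therefore approximate. In bulk libraries, fewer cells of a type and less RNA per cell cannot be told apart.

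At least 5 FPKM in 1 or both libraries was reached by 10 of the 35 (28.6%), namely *Lrmp*, *Itpr3*, *Scnn1a*, *Trpm4*, *Entpd2*, *Slc1a3*, *Avil*, *Ncam1*, *Scnn1b* and *Scnn1g*. Among the 21590 analysed entries with a value in both libraries, 49.8% reached that level. A further 4 genes (*Kcnj2*, *Pou2f3*, *Gng13* and *Kcnq1*) were at 1 to 5 FPKM, where 10.1% of all entries lay. The other 21 (60.0%) were under 1 FPKM in both populations, against 40.1% of all entries, and 2 of them, *Calhm1* and *Kcnj1*, are listed at 0 in both, as 19.9% of all entries are. Just above the 5 FPKM limit was *Scnn1g* with 6.35 FPKM in bright cells, and just below it was *Kcnj2* with 4.07 FPKM in dim cells.

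**Figure D1:**
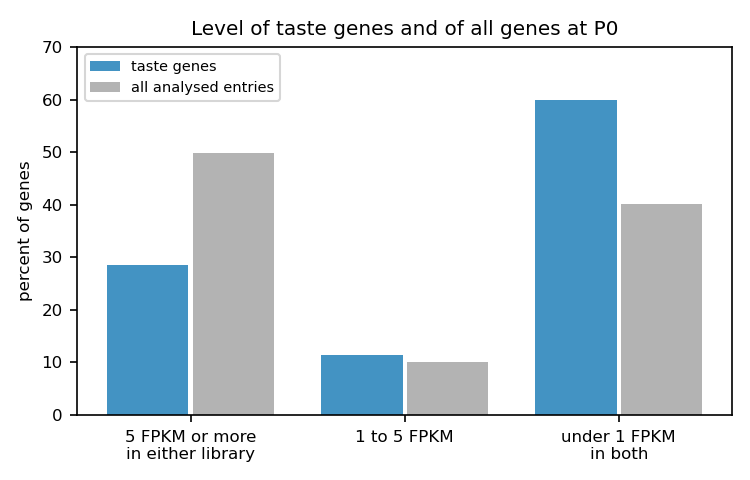
Bars show the percent of genes (y axis) at each level of expression (x axis) for the 35 taste genes and for the 21590 analysed entries. Of the taste genes, 60.0% were under 1 FPKM in both libraries, against 40.1% of all entries.

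A gene was called higher in a population at 5 FPKM or more there and at least 1.5 times the FPKM of the other population. The methods of the study word the minimum as 5 FPKM in each sample, and the calls under that reading are given too. By this rule 5 of the 35 genes were called higher in bright cells, where 4.72% of all entries were, and 3 were called higher in dim cells, where 4.44% were. With 5 FPKM asked of both libraries, the split turned to 2 higher in bright (*Lrmp* and *Scnn1a*) and 3 higher in dim cells of 7 taste genes, against 7.76% and 6.32% of 10016 entries, since *Avil*, *Scnn1b* and *Scnn1g* were under 5 FPKM in dim cells. The genes called higher in bright cells were *Lrmp*, *Avil* and all 3 subunits of the epithelial sodium channel, and those called higher in dim cells were *Slc1a3*, *Entpd2* and *Ncam1*. Over the 33 taste genes not at 0 in both libraries, the median difference of log2(FPKM + 1), bright minus dim, was 0.18, against -0.02 over the 17283 such entries. This value depends on the 1 added, and with 0.1 added it was 0.57, against -0.04. On the TPM scale, where the values of a library are made to add up to the same total, every log2 ratio fell by 0.10. There *Scnn1a* was no longer called and *Itpr3* was called higher in dim cells, so that the split was 4 against 4. Over all entries the same scale moved the split from 1020 and 958 to 807 and 1219.

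**Figure D2:**
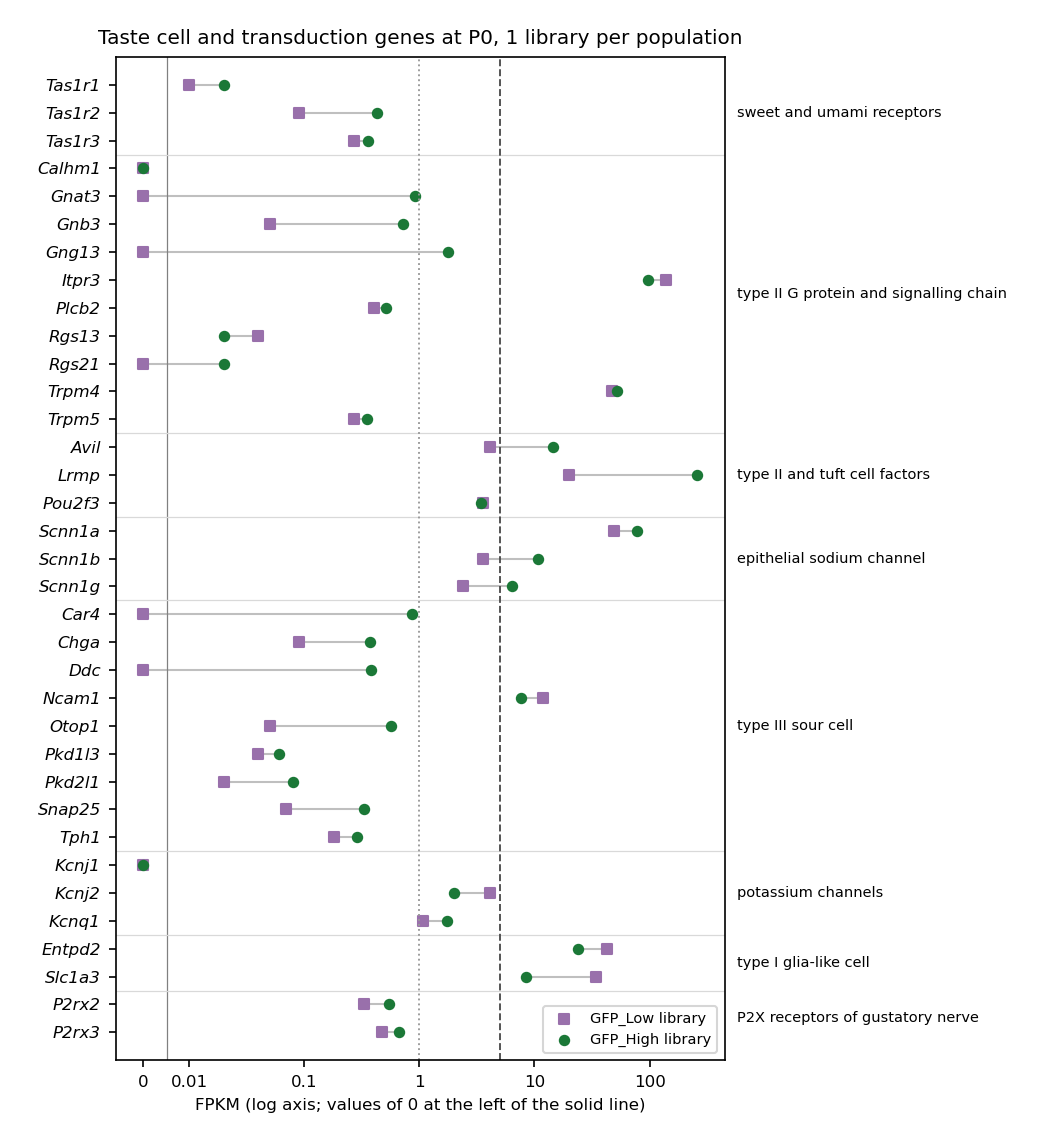
The FPKM of each of the 35 taste genes (y axis, grouped by role) is drawn on a log x axis for the GFP_High library (circles) and the GFP_Low library (squares), with values of 0 at the left edge, a dotted line at 1 FPKM and a dashed line at 5 FPKM. *Lrmp* in GFP_High cells was the highest value, 257 FPKM, and most receptor, G protein and type III genes lay under 1 FPKM.

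*Lrmp* had the highest FPKM of the taste genes in bright cells. It encodes a membrane protein of the endoplasmic reticulum that associates with IP3 receptors and marks type II taste cells and tuft cells. Its gene lies on chromosome 6 (145115653 to 145174934, mm10, the build of all gene positions here). The level was 257 FPKM in bright and 19.8 in dim cells, a ratio of 12.98, and it exceeded the level of 97.4% of all entries in the first library and of 67.1% in the second. Only 2.5% of its exon bases overlap another protein-coding gene, *Casc1*, on the opposite strand. *Avil*, which encodes the actin-binding protein advillin of tuft and sensory cells, was at 14.6 and 4.12 FPKM, a ratio of 3.54. The transcription factor *Pou2f3*, which is required for type II cells and is also known from suprabasal keratinocytes, was at 3.44 FPKM in bright and 3.58 in dim cells, and so differed by a ratio of 1.04 in favour of the dim cells. *Lrmp* and *Avil* were thus higher in bright cells, and *Pou2f3* was at nearly the same level in both libraries.

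Of the 10 genes of the type II signalling chain among the 35, *Itpr3* and *Trpm4* reached 5 FPKM. *Itpr3*, the IP3 receptor through which calcium leaves the endoplasmic reticulum, had 97.4 FPKM in bright and 139.8 in dim cells, above 90.8% and 94.2% of all entries. It was 1.44 times higher in dim cells, which misses the 1.5 limit as deposited and passes it on the TPM scale at 1.54. In bright cells *Lrmp* stood 2.64 times above *Itpr3*, while in dim cells *Itpr3* stood 7.07 times above *Lrmp*. *Trpm4*, a calcium-activated cation channel found in many tissues, was at 52.4 and 46.6 FPKM, a ratio of 1.12. Its relative *Trpm5*, which is largely restricted to taste, tuft and other chemosensory cells, was at 0.35 and 0.27 FPKM, so that *Trpm4* was 149.6 times *Trpm5* in bright and 173 times in dim cells. *Plcb2*, the phospholipase of the taste cascade, was at 0.51 and 0.40 FPKM, which correspond to about 69 and 70 reads. Neither *Trpm5* nor *Plcb2* reached a ratio of 1.5.

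The subunits of gustducin were seen almost entirely in the bright cells, at low levels. *Gnat3*, its alpha subunit (chromosome 5, 17962549 to 18019834), had 0.92 FPKM in bright cells, about 29 reads, and is listed at 0 in dim cells. *Gnb3*, the beta subunit, had 0.72 FPKM in bright cells and 0.05 in dim cells, about 32 and 3 reads. The ratio of 14.4 could lie between 13.0 and 16.1 from the rounding of the deposited values to 2 decimals alone. *Gng13*, the gamma subunit, had 1.77 FPKM in bright cells, about 25 reads, and is listed at 0 in dim cells. Of the exon bases of *Gng13*, 51.6% overlap *Chtf18* on the opposite strand. *Chtf18* was at 26.4 and 26.8 FPKM, nearly equal in the 2 libraries. Whether strand was used in the quantification is not given in the sources used here. All 3 subunits were thus higher in bright cells, yet none reached 5 FPKM.

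The taste receptors themselves were near 0. *Tas1r3*, the subunit shared by the sweet and umami receptors, was at 0.36 FPKM in bright and 0.27 in dim cells, about 33 and 32 reads. *Tas1r2*, the sweet receptor subunit, was at 0.43 and 0.09 FPKM. The gene *Gm21969* shares 49.6% of the exon bases of *Tas1r2* on the same strand and is listed at 0 in bright and at 0.11 FPKM in dim cells, so the ratio of 4.78 for *Tas1r2* is uncertain. *Tas1r1*, the umami subunit, had 0.02 and 0.01 FPKM, about 1 read in each library. Of 35 bitter receptor genes (*Tas2r*) in the table, 32 are listed at 0 in both libraries, and the other 3 (*Tas2r107*, *Tas2r135* and *Tas2r143*) were at 0.22 FPKM or less. Of all entries, 19.9% are listed at 0 in both. The regulators of G protein signalling *Rgs13* (0.02 and 0.04 FPKM) and *Rgs21* (0.02 and 0 FPKM) rested on at most about 2 reads, and *Calhm1*, which encodes a subunit of the ATP release channel, is listed at 0 in both. *Calhm3*, the other subunit of that channel, was at 0.11 and 0.07 FPKM.

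The epithelial sodium channel (ENaC), which carries amiloride-sensitive salt taste and sodium uptake in many epithelia, was the only role group in which every gene was called higher in bright cells, and both type I genes described below were called in the other direction. *Scnn1a*, the alpha subunit, was at 77.8 FPKM in bright and 48.8 in dim cells, a ratio of 1.59 that fell to 1.49 on the TPM scale. *Scnn1b*, the beta subunit (chromosome 7, 121865038 to 121918514), was at 10.8 and 3.56 FPKM, a ratio of 3.04. *Scnn1g*, the gamma subunit (chromosome 7, 121734479 to 121768475), was at 6.35 and 2.39 FPKM, a ratio of 2.66. The alpha subunit was the most abundant in both libraries, at 7.20 times *Scnn1b* in bright and 13.7 times in dim cells. Relative to *Scnn1g* it was at 12.3 and 20.4 times. The beta and gamma subunits kept nearly the same ratio to each other, 1.70 in bright and 1.49 in dim cells. *Scnn1g* and *Scnn1b* lie on the same strand 96.6 kb apart, with 0 protein-coding genes starting between them. Markers of suprabasal keratinocytes moved with these genes. All 5 of them (*Krt13*, *Krt4*, *Krt6a*, *Sbsn* and *Sprr1a*) were higher in bright cells, with a summed level of 51757 against 17220 FPKM. Their part in the sodium channel and *Lrmp* values was not tested.

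The 250 bases before the RefSeq start site (GRCm38.p6) are printed for the neighbouring pair of sodium channel genes that were called together, for *Itpr3* as a gene at a high level in both populations, for *Avil* as a gene called higher in bright cells and for *Gnat3* as a gene near 0. All run 5′ to 3′ on the plus strand, and capitals mark CG dinucleotides.
Scnn1g, chr7:121734229-121734478: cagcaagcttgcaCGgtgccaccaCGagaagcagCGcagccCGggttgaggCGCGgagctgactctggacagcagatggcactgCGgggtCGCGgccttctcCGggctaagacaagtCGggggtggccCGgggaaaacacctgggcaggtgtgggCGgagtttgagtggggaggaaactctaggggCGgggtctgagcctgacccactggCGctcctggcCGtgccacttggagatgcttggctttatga
Scnn1b, chr7:121864788-121865037: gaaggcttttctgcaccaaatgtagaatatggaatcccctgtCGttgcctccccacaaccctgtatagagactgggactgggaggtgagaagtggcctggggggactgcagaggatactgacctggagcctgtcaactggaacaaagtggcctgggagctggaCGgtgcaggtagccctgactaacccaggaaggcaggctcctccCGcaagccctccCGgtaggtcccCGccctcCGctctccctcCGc
Itpr3, chr17:27057054-27057303: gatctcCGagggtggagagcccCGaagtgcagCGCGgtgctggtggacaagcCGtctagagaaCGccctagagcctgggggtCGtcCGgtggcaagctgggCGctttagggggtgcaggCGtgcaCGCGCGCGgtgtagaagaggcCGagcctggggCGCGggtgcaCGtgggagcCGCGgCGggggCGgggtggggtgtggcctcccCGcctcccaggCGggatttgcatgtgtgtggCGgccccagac
Avil, chr10:127000459-127000708: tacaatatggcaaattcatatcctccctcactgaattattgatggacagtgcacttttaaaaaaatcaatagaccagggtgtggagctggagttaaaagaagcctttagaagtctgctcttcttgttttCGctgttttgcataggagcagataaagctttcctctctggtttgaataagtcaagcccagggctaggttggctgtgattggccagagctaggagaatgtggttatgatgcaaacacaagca
Gnat3, chr5:17962320-17962569: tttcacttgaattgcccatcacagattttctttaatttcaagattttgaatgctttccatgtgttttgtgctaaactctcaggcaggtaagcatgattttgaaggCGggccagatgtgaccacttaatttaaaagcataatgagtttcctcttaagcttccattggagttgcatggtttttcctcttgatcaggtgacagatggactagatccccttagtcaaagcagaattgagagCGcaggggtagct

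The CG dinucleotides number 16 in *Scnn1g*, 7 in *Scnn1b*, 25 in *Itpr3*, 1 in *Avil* and 2 in *Gnat3*. The called pair *Scnn1g* and *Scnn1b* had 65.2% and 60.8% G and C, *Itpr3* had 72.0%, and *Avil* and *Gnat3* had 42.0% and 40.8%, against a median of 52.4% over 32851 promoter entries. An entry was matched for 24 of the 35 genes, with the one higher in CG observed over expected used where a gene had more than 1, and none for *Gnb3*, *Kcnq1*, *Lrmp*, *Ncam1*, *P2rx2*, *P2rx3*, *Pkd2l1*, *Pou2f3*, *Scnn1a*, *Snap25* and *Trpm4*. The median count of CG was 8 over the 6 matched genes at 5 FPKM or more (range 1 to 25) and 4 over the 16 matched genes under 1 FPKM (range 0 to 19), so the ranges overlapped. Over all entries it was 6. Among 27 entries of the taste genes, the letters TGCAAAT, part of the octamer bound by POU factors, occurred on either strand in 3 (*Itpr3*, *Rgs21* and *Tas1r2*), or 11.1%, against 3.56% of all entries. The SOX core ATTGTT occurred in 2 (*Ddc* and *Tas1r3*), or 7.41%, against 9.42% of all. TATAAA occurred in 2 (*Ddc* and *Slc1a3*), or 7.41%, against 12.4%. Neither TGTTTAC, a forkhead core, nor GACCACC, part of the GLI site, occurred in these windows, which hold them in 3.17% and 2.34% of all entries. ATTGTT and TGTTTAC can overlap in the letters TGTT, and a match of letters is not evidence of binding.

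Genes of type III cells were mostly near 0 and mostly higher in bright cells. *Otop1*, the proton channel of sour taste, was at 0.57 FPKM in bright and 0.05 in dim cells, about 46 and 5 reads, a ratio of 11.4 with a rounding range of 10.3 to 12.8. *Car4*, the carbonic anhydrase of type III cells, was at 0.87 FPKM in bright cells and is listed at 0 in dim cells. *Ddc*, which makes serotonin from its precursor, was at 0.38 FPKM and is listed at 0 in dim cells. *Snap25*, a protein of synaptic vesicle fusion, was at 0.33 and 0.07 FPKM, and *Chga*, a granule protein of neuroendocrine cells, was at 0.37 and 0.09 FPKM, about 17 and 5 reads for each gene. *Pkd2l1* had 0.08 and 0.02 FPKM and *Pkd1l3* had 0.06 and 0.04 FPKM, at most about 10 reads. These channel subunits of type III cells are therefore barely measured. *Tph1*, the first enzyme of serotonin synthesis, was at 0.29 and 0.18 FPKM, a ratio of 1.61. *Tph1* is also known from mast cells, whose 5 markers (*Cpa3*, *Mcpt4*, *Cma1*, *Tpsb2* and *Fcer1a*) were all higher in bright cells, with a summed level of 28.3 against 5.34 FPKM and *Fcer1a* at 0.05 and 0. Merkel cells share *Snap25* and *Chga* with type III cells. Of their 4 markers, *Krt20* was at 2.82 and 0.08 FPKM, *Atoh1* at 0.08 and 0.07, *Piezo2* at 1.70 and 6.82 and *Isl1*, which is also among the precursor genes described below, at 11.7 and 74.3. Their summed level was 16.3 against 81.2 FPKM. The part of mast and Merkel cells in these values was not tested.

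The exception among the type III genes was *Ncam1*, a cell adhesion molecule of type III cells, nerve and glia (chromosome 9, 49502136 to 49798925). It was at 7.64 FPKM in bright and 11.8 in dim cells, 1.54 times higher in dim cells. With 1 added to each value, the ratio was 1.48 and *Ncam1* was no longer called. It was the only type III gene at 5 FPKM or more and the only 1 of the 9 that was higher in dim cells.

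Over the 19 genes under 1 FPKM in both libraries and not at 0 in both, 18 were higher in bright cells, the exception being *Rgs13*. Among all 4348 entries at such levels, 48.2% were. Of the 19 genes, 15 rested on about 10 or more reads in bright cells, and 3 (*Tas1r1*, *Rgs13* and *Rgs21*) on 3 or fewer in both. The estimated depths were about 27200000 reads for the bright and 35600000 for the dim library. The part of depth in this pattern was not tested.

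**Figure D3:**
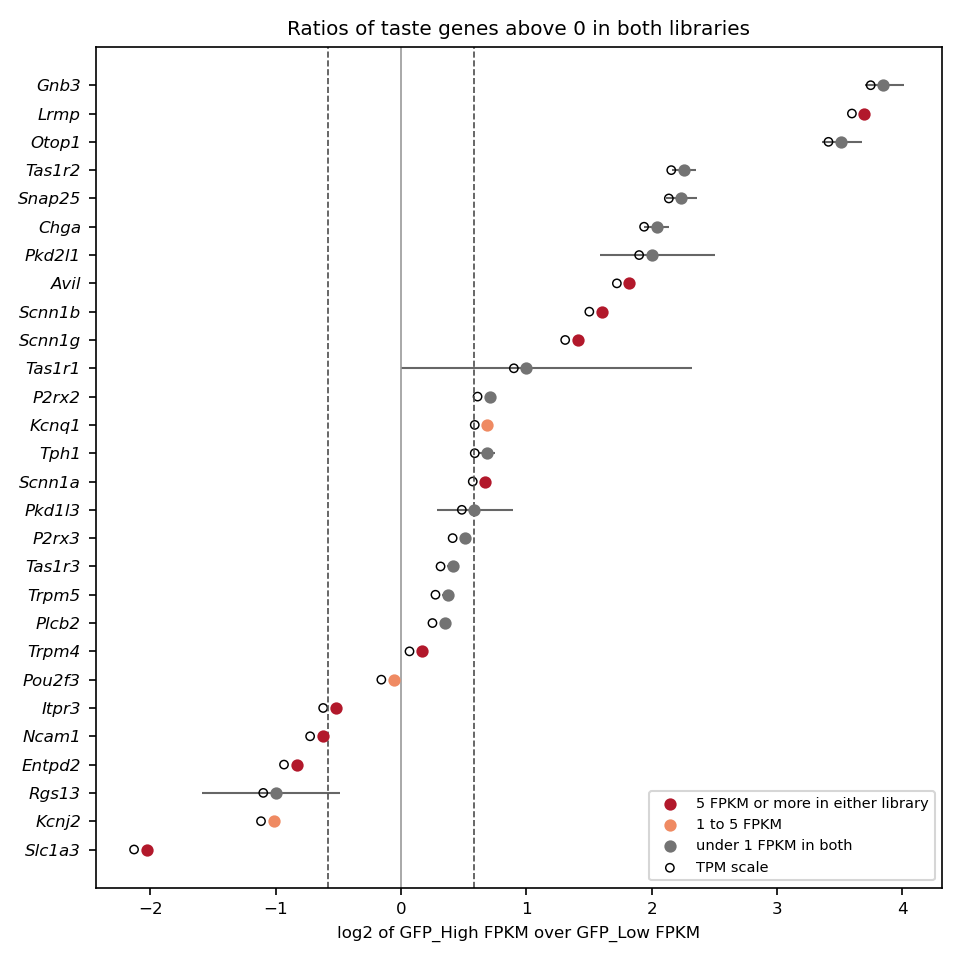
Points give the log2 ratio of GFP_High to GFP_Low FPKM (x axis) for the 28 taste genes above 0 in both libraries (y axis), coloured by level, with bars for the rounding of the deposited values only, open circles for the TPM scale and dashed lines at 1.5-fold. *Gnb3*, *Lrmp* and *Otop1* had the highest ratios (14.4, 12.98 and 11.4), and *Slc1a3* was lowest, at 4.09 times higher in GFP_Low cells. The ratios of *Gnb3* and *Otop1* rest on about 3 and 5 reads in GFP_Low cells, against about 1492 for *Lrmp*, so they are imprecise.

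Of the type I genes, *Slc1a3* and *Entpd2* were both called higher in dim cells. *Slc1a3*, the glutamate transporter GLAST of glia and type I cells (chromosome 15, 8634124 to 8710764), was at 8.38 FPKM in bright and 34.3 in dim cells, 4.09 times higher in dim cells. *Entpd2*, the ectonucleotidase that degrades ATP around taste cells (chromosome 2, 25395874 to 25401321), was at 23.7 and 42.2 FPKM, 1.78 times higher in dim cells. Of the exon bases of *Entpd2*, 28.8% overlap *Npdc1* on the same strand, which was at 94.5 and 117 FPKM, and 25.9% of its 50-nt windows occur in another gene, so its level is uncertain. *Kcnj1*, the potassium channel ROMK of type I cells, is listed at 0 in both. Markers of Schwann cells and glia moved with *Slc1a3*, *Entpd2* and *Ncam1*. The 5 reported here (*Sox10*, *Ednrb*, *Foxd3*, *S100b* and *Erbb3*) were all higher in dim cells. Their summed level was 61.7 FPKM in bright and 152 in dim cells. Most of the bright sum was *Erbb3*, at 60.25 and 66.89 FPKM, which was not called. *Sox10* was at 0.51 and 42.7, *Ednrb* at 0.69 and 19.9, *Foxd3* at 0.12 and 19.0 and *S100b* at 0.12 and 3.44. Of 7 fibroblast markers, all but *Twist2* were higher in dim cells and the summed level was 411 against 1816 FPKM. None of these glial and fibroblast markers was at 0. Their part in the type I values was not tested.

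The other potassium channels were at 1 to 5 FPKM. *Kcnj2*, an inward rectifier that shapes the acid response of type III cells, was at 2.01 FPKM in bright and 4.07 in dim cells, 2.02 times higher in dim cells. *Kcnq1*, a voltage-gated channel of taste bud cells, was at 1.74 and 1.08 FPKM, a ratio of 1.61. Both missed the 5 FPKM minimum. *P2rx2* and *P2rx3*, the ATP receptors of the gustatory nerve, were at 0.54 and 0.33 FPKM and at 0.67 and 0.47 FPKM, between about 22 and 29 reads each. The ratios were 1.64 and 1.43. The cell bodies of these nerves lie in ganglia outside the tongue. Of the 4 neuronal markers reported here, *Elavl3*, *Elavl4* and *Nefl* were at 0.21 FPKM or less in both libraries, and *Stmn2* was at 10.4 and 2.22. Their summed level was 10.8 against 2.45 FPKM, and their part in the P2X values was not tested.

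Of 13 genes of the taste bud primordium and its precursors, 12 were at 5 FPKM or more, 10 were called higher in bright cells and 1, *Isl1*, higher in dim cells, with a median log2(FPKM + 1) difference of 1.10. One of the 10 is *Sox2*, whose reporter set the sort, and several were named by the study from these libraries, so the count is not independent evidence of their direction. Over all entries 49.8% were at 5 FPKM or more and 4.72% were called higher in bright cells. *Shh* was at 20.7 and 0.84 FPKM, *Prox1* at 5.40 and 0.36, and the taste bud keratin *Krt8* at 27.9 and 12.2. Tuft cells share *Pou2f3*, *Trpm5*, *Avil* and *Lrmp* with type II cells. Of 13 further tuft cell genes, none was called higher in bright and 2, *Ptgs1* (25.9 and 43.1 FPKM) and *Ascl2* (5.14 and 11.6 FPKM), were called higher in dim cells, with a median of -0.43. Over all entries 4.44% were called higher in dim cells. The tuft kinase *Dclk1* was at 0.64 and 2.49 FPKM, and *Gfi1b* and *Sh2d6* are listed at 0 in both. *Lrmp* and *Avil* were thus higher in bright cells while 9 of these 13 genes were higher in dim ones. A further 2 were higher in bright cells. The 2 at 0 in both libraries are of a kind that the following share leaves out. Of all entries not at 0 in both libraries, 9254 of 17283 were higher in dim cells. Under 1 FPKM in both libraries were 7 of the 13, so most of them were at low levels.

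Of 14 synaptic and amine genes known from type III cells, 1 was called, the serotonin transporter *Slc6a4*, at 16.3 FPKM in bright and 9.50 in dim cells. By the same rule 4.72% of all entries were called higher in bright and 4.44% in dim cells. The median difference was 0.07. *Vamp2* (102 and 133 FPKM), *Stx1a* (18.3 and 16.7) and *Cacna1a* (13.3 and 14.4), which act in vesicle release in many cells, were at similar levels in both. *Gad2*, an enzyme of GABA synthesis, was at 1.23 FPKM in bright cells and is listed at 0 in dim cells. The transcription factor *Nkx2-2* was at 0.03 and 0.77 FPKM. Under the 5 FPKM minimum, *Syt1* (4.64 and 0.92 FPKM) and *Nrcam* (2.69 and 0.46) were higher in bright cells and *Uchl1* (1.71 and 4.21) in dim cells. Of the 14 genes, 8 were higher in bright and 6 in dim cells. Of all entries not at 0 in both libraries, 45.6% were higher in bright cells. Of 10 other transduction and release genes of type II cells, 5 were at 5 FPKM or more, as were 49.8% of all entries, and none was called. *Gnai2* (230.1 and 228 FPKM), *Panx1* (68.2 and 69.7), *Pla2g4a* (58.4 and 58.0) and *Plcb4* (6.52 and 8.75), all also used by other cells, were among the 5. *Gnb1*, a G protein beta subunit used by most cells, was at 771 and 660 FPKM, 1071 times the level of *Gnb3* in bright cells.

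**Figure D4:**
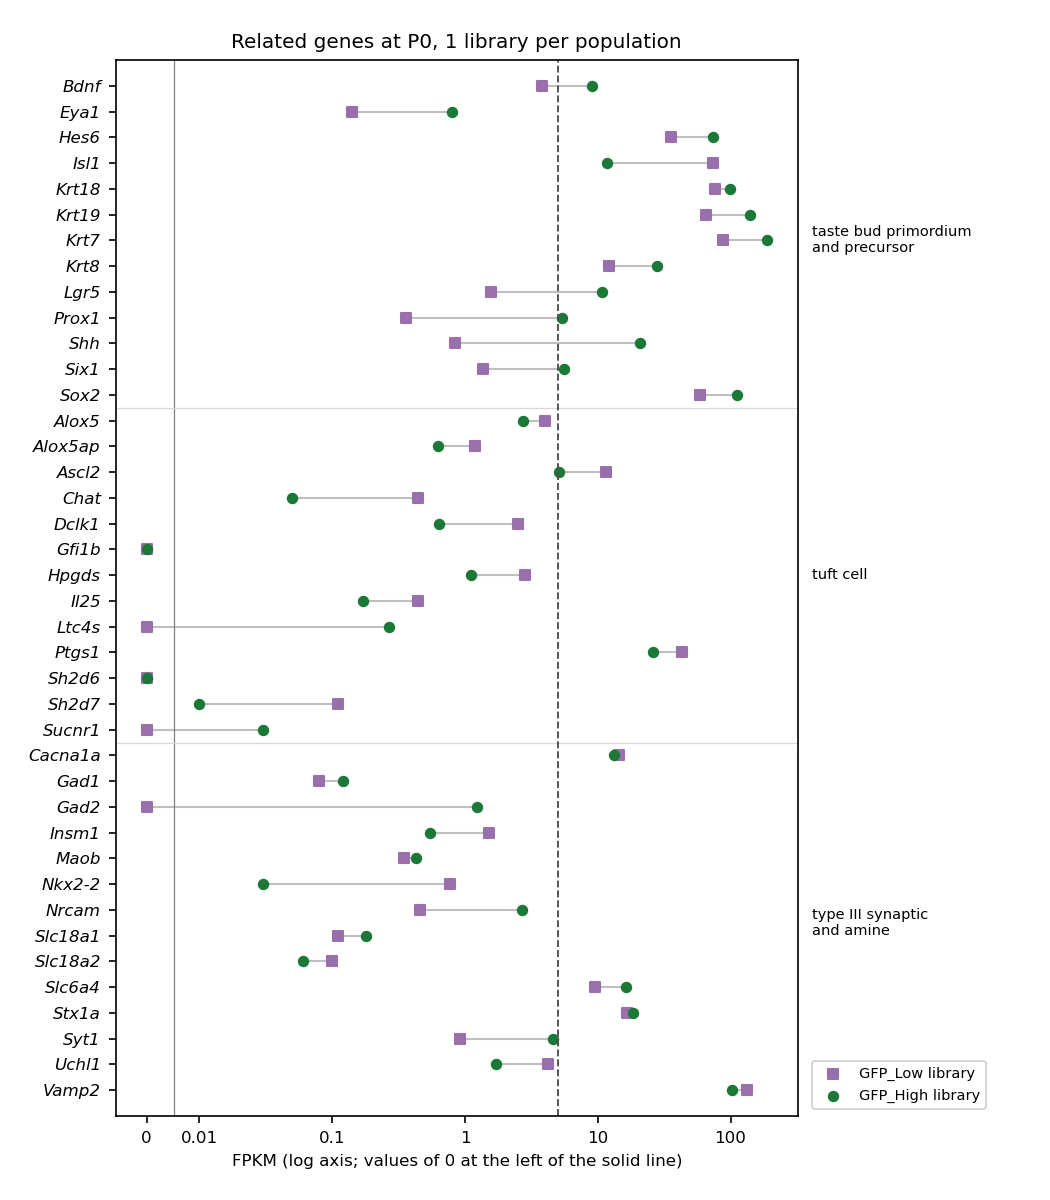
The FPKM of related genes (y axis, in 3 lists) is drawn on a log x axis for the GFP_High library (circles) and the GFP_Low library (squares), with values of 0 at the left edge and a dashed line at 5 FPKM. Primordium and precursor genes other than *Isl1* lay higher in GFP_High cells, and most tuft cell genes lay higher in GFP_Low cells.

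The remaining marker lists describe what else the libraries held. Basal keratinocyte markers were abundant in both libraries, and all 5 were higher in dim cells (24033 against 30549 FPKM summed). The summed level of 4 endothelial markers was 29.6 against 21.2 FPKM, of 4 skeletal muscle markers 9.97 against 13.3 and of 3 leukocyte markers 14.8 against 16.5. Most of each sum was 1 gene, namely *Egfl7* (18.5 and 15.9), *Acta1* (7.25 and 8.57) and *Cd68* (14.0 and 15.3). All 4 endothelial markers were higher in bright cells, and *Pecam1* (5.31 and 2.38) was called. In dim cells 3 of the 4 muscle and 2 of the 3 leukocyte markers were higher. Of 4 melanocyte markers, *Mitf* (17.2 and 1.24 FPKM) made up most of a sum of 18.5 against 3.76, *Pmel* was at 1.09 and 0.73, and *Dct* (0.23 and 0.91) and *Tyrp1* (0.04 and 0.88) were higher in dim cells. The 3 epithelial markers *Epcam*, *Cdh1* and *Krt8* summed to 575 against 408 FPKM.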

How the data were processed

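The authors sequenced mRNA of 1 library per sorted population with single-end reads of 50 nt. Per the labels and methods, reads were trimmed with Trimmomatic 0.36 and mapped to mm10 with GSNAP, and FPKM was obtained with Cufflinks 2.2.1. The authors deposited FPKM rounded to 2 decimals and a column of their own fold change, which was not used. The annotation is not given in the sources used here.

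Symbols, types and positions are from GENCODE M21 on mm10. The 21 entries typed as other than protein-coding and 17 without a number in a library were left out of the background. No test was possible with 1 library each. Depth was sought over genes with 1 transcript of 400 to 2500 nt and 0.05 to 1 FPKM, as the value bringing FPKM times length less 200 nt closest to whole reads, and approximate reads use the longest protein-coding transcript. Rounding ranges cover the deposited decimals only. The calls and the depth search were tested on simulated data (Python 3.11.15, pandas 2.3.3). The simulation used the same length rule, depths near those found and large changes in genes well above 0. It therefore does not bear on calls near 1.5-fold, on genes near 0 or on the depth of the real libraries. Windows of 50 nt were compared among transcripts. All 35 genes are named. From related lists, those with the highest FPKM or a call are named, with others chosen after their values were seen, and *Gnb1l* and *Gnb2l1* were left out of the beta subunits. The members and lists were chosen with earlier results of these data known. Alternatives changed the FPKM and fold minimum, the near-0 limit, the pseudocount and the scale. Some genes of the related and marker lists are not reported here and were left out of their counts and sums.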

Additional observations from a re-analysis of the deposited data

How the results depend on the processing

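With 1 library per population, no result here has a replicate check, and no paired analysis was possible because each population has 1 sample and no test was made. The number of genes at 1 to 5 FPKM was 4, and it was 2 with a 2 FPKM minimum for the upper class and 11 with 0.5 FPKM as the near-0 limit. The 5 genes called higher in GFP-high cells became 21 without an FPKM minimum and 2 with 5 FPKM asked of both libraries, and the 3 called higher in GFP-low cells became 5 without a minimum and 1 (*Slc1a3*) at 2-fold. No share over all entries is given for the counts without a minimum or at 2-fold, so these counts are not a result about the taste genes. The 21 include *Tas1r1* and *Rgs21*, at about 1 read in bright cells. The median difference of 0.18 was 0.57 with a pseudocount of 0.1, 0.16 over genes with a mean of at least 1 FPKM, 0.14 by TPM and 0.20 once the median ratio was set to 1. Depth limits *Tas1r1*, *Rgs13*, *Rgs21*, *Pkd1l3* and *Pkd2l1* most, at about 10 reads or fewer in each library.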

Other observations

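Several relatives of the taste genes that other cells also use were at 5 FPKM or more, as were 49.8% of all entries. Of the other proton channels of the otopetrin family, *Otop2* was at 6.30 FPKM in bright and 8.93 in dim cells and *Otop3* at 5.93 and 7.18, against 0.57 and 0.05 for *Otop1*. Of 5 other P2X receptors, *P2rx4* was at 19.1 and 28.4 FPKM, and *P2rx7*, known from immune and glial cells, was called higher in dim cells at 6.19 against 1.18 FPKM. Among other enzymes that break down extracellular nucleotides, *Nt5e*, which makes adenosine from AMP, was at 187 and 109 FPKM and was called higher in bright cells, in the opposite direction to *Entpd2*. Of the G protein gamma subunits other than *Gng13*, *Gng2* was called higher in bright cells (40.7 and 13.9 FPKM), and *Gng10* (39.3 and 89.2 FPKM) and *Gng11* (3.55 and 6.41 FPKM) were called higher in dim cells. Of the beta subunits, *Gnb4* was called higher in dim cells (1.51 and 6.87 FPKM). For these calls, the shares over all entries were 4.72% higher in bright and 4.44% higher in dim cells.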
